A study of Mus musculus with 4 samples.

Results

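The genes described here are 39 ion channel genes of the mouse cerebellum, listed by name: 4 sodium channel genes, 14 calcium channel genes, 20 potassium channel genes with their partners, and 1 gene of the HCN (hyperpolarisation-activated cation) class. It is called voltage-gated, but the 4 inward rectifier genes (Kcnj) and the 3 small-conductance genes (Kcnn) encode channels that are not opened by voltage, and several members are accessory subunits. On the array, 84 of 56605 probes carried a RefSeq accession of a member, and 76 of them, covering all 39 genes, were bright enough to keep (signal well over background in every mouse of 1 group or more). One-colour Agilent arrays measured total cerebellar RNA of 4 mice, taken at postnatal day 28. The 2 control mice were Derlin-2 flox/flox, while the 2 knockouts (KO) were bred by bringing Cre recombinase under the nestin promoter into the floxed line. All were C57BL/6 mice kept free of specific pathogens, and no drug or other treatment is named. Nestin is active in precursors of neurons and glia, so cells of other origin, such as microglia and blood vessels, are not a main target of this Cre. Derlin-2, encoded by Derl2, sits in the membrane of the endoplasmic reticulum (ER) and helps to pass misfolded proteins out for degradation. The arrays thus compare mice bred for loss of Derl2 in the nervous system with floxed mice. They measure RNA and not the Derlin-2 protein. Cre is named for the knockouts and not for the controls, so effects of Cre and of Derl2 loss cannot be told apart.

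Sodium and calcium channels let cations into a neuron and drive spikes, transmitter release and calcium signals, while potassium channels let potassium out and end them. The large alpha subunits form the pore, and beta, alpha2delta and interacting proteins set how many channels reach the membrane and how they gate. These are multi-pass membrane proteins that are folded and assembled in the ER. In the cerebellum, Purkinje cells fire spontaneously at high rates with fast sodium and potassium channels, P/Q-type calcium channels and large-conductance calcium-activated potassium channels, and granule cells and interneurons carry other sets.

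Of the 39 members, 33 had at least 1 promoter window in a RefSeq table of build GRCm38.p6, 50 windows in all, read here as the 250 bases before each start. The letters GGGCGG (the core of a GC box, read on both strands) were found in 18 of the 50 windows (36.0%), against 32.7% of 32851 windows of all genes. The letters TATAAA (the core of a TATA box, both strands, in any place) were found in 1 window (2.0%), against 12.4% of all. The letters TGACGTCA (a cAMP response element) and the consensus of the ER stress response element were found in 0 member windows, and in 1.55% and 0.113% of all. The member windows had a median GC content of 60.6%, against 52.4% over all genes. Matches are descriptions of letters, not of sites in use. Of the 3 windows printed here, those of Cacna1c and Kcnj6 belong to the members with the smallest unadjusted p in the comparison of KO with control, and that of Kcnj9 is the window with TATAAA, which starts 168 bases before the gene's start. Capitals mark GGGCGG and TATAAA on either strand, and overlapping copies of GGGCGG run together.
Cacna1c, 1 of 3 windows, chr6:119108496-119108745, minus strand: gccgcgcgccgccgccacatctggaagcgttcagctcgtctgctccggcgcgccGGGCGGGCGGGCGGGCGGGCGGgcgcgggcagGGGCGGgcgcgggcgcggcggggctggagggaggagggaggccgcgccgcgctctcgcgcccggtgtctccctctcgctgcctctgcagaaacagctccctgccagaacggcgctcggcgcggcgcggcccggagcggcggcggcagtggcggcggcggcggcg
Kcnj6, 1 of 2 windows, chr16:94997697-94997946, minus strand: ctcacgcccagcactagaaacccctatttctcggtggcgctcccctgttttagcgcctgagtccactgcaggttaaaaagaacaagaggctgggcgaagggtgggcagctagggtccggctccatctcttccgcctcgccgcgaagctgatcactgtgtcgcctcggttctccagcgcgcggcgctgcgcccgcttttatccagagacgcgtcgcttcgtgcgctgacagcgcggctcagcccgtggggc
Kcnj9, chr1:172329323-172329572, minus strand: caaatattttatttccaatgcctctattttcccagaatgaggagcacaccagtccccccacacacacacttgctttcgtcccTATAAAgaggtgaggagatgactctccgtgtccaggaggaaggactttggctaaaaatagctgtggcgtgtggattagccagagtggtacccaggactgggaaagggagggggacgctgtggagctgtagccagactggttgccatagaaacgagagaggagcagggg
The Cacna1c window held 6 copies of GGGCGG and 48 CpG dinucleotides, the Kcnj6 window 0 copies and 26 CpG, and the Kcnj9 window 0 copies and 5 CpG. The windows of a gene differed. Those of Cacna1c that are not printed held 0 copies each, with 5 and 2 CpG, and the other Kcnj6 window held 1 copy and 7 CpG.

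Signals are given as log2 of the processed spot intensity relative to the array's 75th percentile, so 0 is that percentile and a difference of 1 is 2-fold. Probes bind with different strength, so levels are compared between mice and not between genes. The Derl2 probes checked the labels: A_51_P498831 read 2.13 and 2.2 in control mice and 0.81 and 0.70 in KO mice, which left 37.6% of the control signal, and the other probe left 30.2%. All 4 arrays share 1 slide, where position and group cannot be told apart, and 66.4% to 69.4% of spots were well above background. Marker lists of cerebellar cells were summed per array. The summed signal of 12 Purkinje cell markers was 9.78 and 9.80 in control mice and 9.70 and 9.70 in KO mice (log2), and that of 11 granule cell markers was 9.01 and 9.05, and 8.99 and 9.0. Both of these sums were lower in both knockouts than in both controls. So were those of 9 interneuron and Golgi cell markers, of oligodendrocyte precursor markers and of microglia markers. The sum of 10 astrocyte and Bergmann glia markers was lower too, at 8.01 and 8.04 in control mice and 7.75 and 7.83 in KO mice. The sums of oligodendrocyte markers and of endothelial and pericyte markers overlapped between the groups. The granule cell sums nearly met, at 9.011 on control replicate 1 and 9.002 on KO replicate 2. The median KO minus control difference was −0.027 for granule cell markers and −0.062 for Purkinje cell markers, against −0.064 over all genes. Of all genes, 32.1% were lower in both knockouts than in both controls. The library of control replicate 2 stood apart for choroid plexus, the tissue that makes cerebrospinal fluid: the summed signal of 11 markers was 7.21 there and between 2.95 and 3.03 on the other arrays. It also stood apart for 6 red blood cell markers, at 9.30 against 8.73 on each other array. In whole tissue, fewer cells of a type and less RNA per cell cannot be told apart.

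No channel gene passed the test of KO against control. With limma and Benjamini-Hochberg adjustment over all 37516 probes, 0 of the 76 member probes had an adjusted p under 0.05, where the background over all probes was 0%, and the smallest adjusted p of a member on its brightest probe was 0.309 (Cacna1c). In the same test Derl2, the deleted gene, did not pass either, with a limma adjusted p of 0.273 on both of its kept probes. Under an intensity trend with robust variances 0 of the 39 members, each on its brightest probe, passed. At an unadjusted limma p under 0.05 there were 2 of 39 members, Cacna1c and Kcnj6, both higher in KO, against 8.81% of 16524 genes each read on its brightest probe (3.16% higher and 5.65% lower). Both knockouts lay on one side of both controls for 25 members (64.1%), against 45.9% of all genes: 8 were higher in KO (20.5%, background 13.8%) and 17 lower (43.6%, background 32.1%). This count was smaller with other processing: 20 of 39 with spike-in scaling (41.4% of all genes) and 21 with quantile normalization (43.3%). With normexp background correction it was 20 (44.9%). The smallest two-sided p of an exact permutation test with 2 mice in each group is 0.33, so such separation is a description. The median difference over the 39 members was −0.078, close to −0.064 over all genes, and 25 members (64.1%) were lower in KO against 63.9% of all genes. After scaling to spike-in RNA 21 of 39 members were lower, against 49.5% of all genes, and after quantile normalization 21, against 55.9%. The KO minus control difference was larger than both the gap between the controls and the gap between the knockouts for 14 members (35.9%), against 32.7% of all genes.

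**Figure D1:**
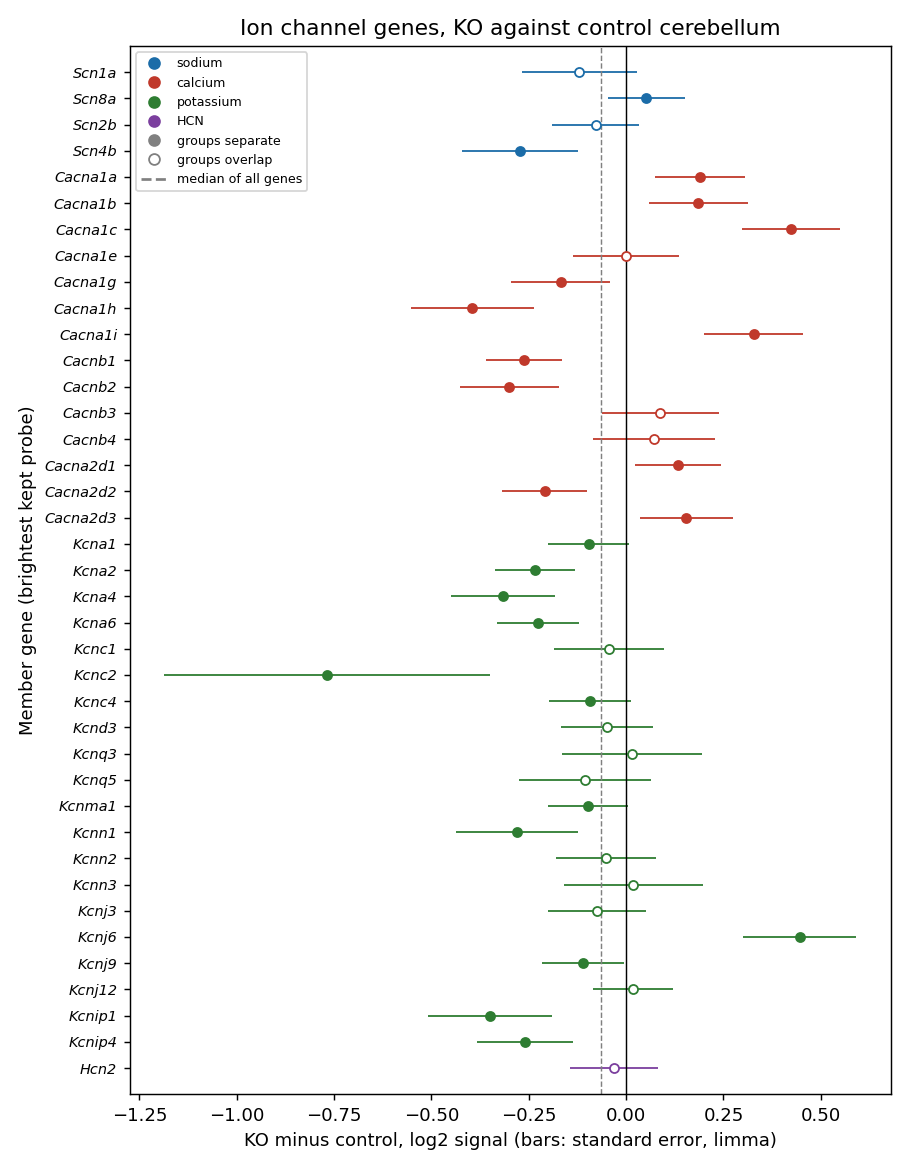
KO minus control difference in log2 signal (horizontal axis) of the 39 channel genes on the brightest kept probe of each, with the limma standard error as bars and n = 2 mice per group. Filled points have both knockouts on one side of both controls, open points overlap, and the dashed line is the median of all genes at −0.064. Calcium channel genes lie on both sides of 0, and 16 of the 20 potassium channel genes lie below it, as do 63.9% of all genes.

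Sodium channel genes differed little between the groups. Scn1a and Scn8a encode the pore-forming subunits of the fast sodium channels of interneurons and Purkinje cells. Scn1a read 3.09 and 2.98 in control mice and 3.07 and 2.76 in KO mice, with a difference of −0.12 (SE 0.15). Its groups overlapped on each of its 3 probes, and KO replicate 2 was the lowest array. Scn8a, nearest to no difference in its class, read 2.74 and 2.76 in control mice and 2.83 and 2.77 in KO mice. Its difference was 0.052 (SE 0.10), all 4 of its probes were higher in KO, and the groups were separate on 1 of them. Scn2b, which encodes a beta subunit that links the pore to adhesion proteins, read 5.26 and 5.38 in control mice and 5.19 and 5.29 in KO mice, so the groups overlapped. Scn4b encodes the beta subunit tied to resurgent sodium current, which supports repetitive firing of Purkinje cells. It read 3.10 and 2.77 in control mice and 2.70 and 2.62 in KO mice, with a difference of −0.27 (SE 0.15; limma adjusted p 0.469). Both knockouts were below both controls, but the gap between the controls, 0.325, was larger than the difference, which was −0.11 without control replicate 1 and −0.44 without control replicate 2.

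Among the 7 pore-forming calcium channel genes, 5 were higher and 2 lower in KO, where 36.1% and 63.9% of all genes were, and 6 had separate groups (background 45.9%). Cacna1e counted as higher with a difference of only 0.0004 (SE 0.14). When arrays were scaled to the median of bright probes, 4 were higher and 3 lower. With the mean of all kept probes of a gene 3 were higher and 4 lower, and with patch spots also left out 5 and 2. Cacna1c, the main pore of L-type channels in brain and heart, read 2.94 and 2.94 in control mice and 3.25 and 3.49 in KO mice. Both knockouts were above both controls by more than either pair of mice differed. The difference was 0.42 (SE 0.13), so the KO signal was 134% of control, with an unadjusted limma p of 0.0249 and an adjusted p of 0.309. Over 17 alternative settings the difference ran from 0.30 to 0.54 and the adjusted p from 0.173 to 0.702. The other 3 kept probes of Cacna1c were also higher in KO, by 0.034, 0.33 and 0.39, but the groups overlapped on each of them.

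Cacna1a and Cacna1b encode the P/Q-type and N-type channels that trigger transmitter release. Cacna1a, which dominates the calcium current of Purkinje cells, read 4.42 and 4.60 in control mice and 4.67 and 4.73 in KO mice. All 3 of its probes had separate groups and gave close differences of 0.19, 0.19 and 0.17, though the gap between the controls on the brightest probe, 0.181, was nearly as large (limma adjusted p 0.508). The difference was 0.099 without control replicate 1 and 0.28 without control replicate 2. Cacna1b read 1.57 and 1.75 in control mice and 1.93 and 1.77 in KO mice, a difference of 0.19 (SE 0.13) with separate groups. A dimmer probe of Cacna1b, A_55_P2078040, gave 0.29, also with separate groups. Another probe, A_66_P140017, gave −0.69, but it read −1.12 on control replicate 1 and between −2.67 and −2.58 on the other 3 arrays, and its spot on control replicate 1 lay on a patch of raised local background (3.0 times the array median). Cacna1e, the R-type pore, was the calcium channel gene nearest to no difference: it read −1.52 and −1.57 in control mice and −1.40 and −1.69 in KO mice, so the knockouts bracketed the controls.

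The 3 T-type genes, whose channels open near rest and feed burst firing, went different ways. Cacna1g, the main T-type gene of Purkinje cells, was lower in KO on all 3 probes, by 0.168, 0.109 and 0.086 on the log2 scale, with separate groups on 2. Its brightest probe read 3.77 and 4.01 in control mice and 3.68 and 3.76 in KO mice, so the difference was smaller than the gap between the controls. Cacna1h read −2.24 and −2.45 in control mice and −2.58 and −2.89 in KO mice, a difference of −0.40 (SE 0.16; limma adjusted p 0.378). Its groups were separate on this probe, but a dimmer probe, A_55_P1986591, was separate in the other direction, by 0.17. Cacna1i read 2.35 and 2.50 in control mice and 2.65 and 2.85 in KO mice, a difference of 0.33 (SE 0.13; limma adjusted p 0.370) with separate groups. A second Cacna1i probe, A_66_P112371, gave −0.69: it read −1.77 on control replicate 1, where its local background was 3.60 times the array median, and between −3.02 and −2.90 elsewhere.

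The 4 beta subunits, cytoplasmic proteins that carry calcium channels to the membrane, split evenly. Cacnb2 read −0.60 and −0.83 in control mice and −0.99 and −1.04 in KO mice, a difference of −0.30 (SE 0.13; limma adjusted p 0.391). Cacnb1 was lower by 0.262 on the log2 scale, with controls within 0.017 and knockouts within 0.048 of each other. Both of these had separate groups. The brightest probes of Cacnb3 and Cacnb4 were higher by 0.088 and 0.071 with overlapping groups; Cacnb4, the gene altered in the lethargic mouse with ataxia, is strongly expressed in the cerebellum. The second Cacnb2 probe gave −0.86, and its spot on control replicate 1 also lay on the patch of raised background.

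The alpha2delta subunits are extracellular proteins that raise the surface number of calcium channels and bind gabapentin-type drugs in some forms. Cacna2d2, the Purkinje cell form, read 4.58 and 4.62 in control mice and 4.46 and 4.32 in KO mice. Both knockouts were below both controls, by −0.21 (SE 0.11; limma adjusted p 0.453), and a dimmer probe, A_52_P147070, was separate in the same direction, by −0.16. On its remaining kept probe, A_51_P171711, the groups overlapped, with a difference of −0.0090. Cacna2d1 and Cacna2d3 were higher with separate groups, by 0.13 and 0.15. A probe of Cacna2d1 for another transcript, A_66_P138052, gave 0.35 with separate groups (unadjusted limma p 0.0452; adjusted p 0.347). Its remaining kept probe, A_52_P160543, overlapped at 0.038, with its spot on control replicate 1 on the patch.

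Of the 20 potassium channel genes 16 were lower in KO (80%, against 63.9% of all genes), and their median differed from that of all genes by −0.033. In 11 both knockouts lay below both controls (55%, against 32.1% of all genes), while 1, Kcnj6, was separate in the higher direction. With spike-in scaling 13 were lower (49.5% of all genes) and 7 were separate and lower (19.7% of all genes). With quantile normalization these counts were also 13 (55.9% of all genes) and 7 (24.9%). With normexp background correction they were 16 (64% of all genes) and 7 (31.3%). None of the 20 passed the adjusted threshold in any of these settings. For neuron markers the median difference was −0.027 for granule cells, −0.062 for Purkinje cells and −0.157 for interneurons and Golgi cells, against −0.064 over all genes. It was −0.128 for astrocyte and Bergmann glia markers and −0.277 for oligodendrocyte markers, whose summed signal overlapped between the groups. The part of these cell types in the potassium channel values was not tested.

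The 10 Kv genes encode the channels that repolarise spikes, and 9 of them were lower in KO (all genes 63.9%), 6 with separate groups (32.1%). The Kv1 genes Kcna1, Kcna2, Kcna4 and Kcna6, whose channels sit on axons and on the basket cell terminals around Purkinje cells, all had separate groups. Kcna1, the gene altered in human episodic ataxia with muscle rippling, read 5.44 and 5.33 in control mice and 5.32 and 5.26 in KO mice, a difference of −0.096 (SE 0.10). That difference was smaller than the gap between the controls, 0.103. Kcna6 read 4.40 and 4.39 in control mice and 4.23 and 4.11 in KO mice. Its difference was −0.23 (SE 0.10; limma adjusted p 0.413), and its second probe, A_55_P2123283, gave −0.33 with separate groups (unadjusted limma p 0.0330; adjusted p 0.328). Kcna2 read 1.13 and 1.21 in control mice and 0.97 and 0.90 in KO mice, and Kcna4 read −1.80 and −1.90, and −2.29 and −2.04. For Kcna2, Kcna4 and Kcna6 the difference was larger than the spread within either pair of mice.

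The Kv3 genes Kcnc1, Kcnc2 and Kcnc4 encode fast channels that let neurons fire at high rates. Kcnc2 had the largest difference of all members, −0.77 (SE 0.42; limma adjusted p 0.469), but 1 array made it: the gene read −2.0 on control replicate 1, −3.19 on control replicate 2, and −3.44 and −3.29 in the knockouts. Without control replicate 1 its difference was −0.17. The local background of that spot was 1.0 times the array median, so it did not lie on the patch. Kcnc1, abundant in granule cells, read 3.58 and 3.51 in control mice and 3.65 and 3.36 in KO mice, a difference of −0.043. Its 3 probes gave both signs, and 1 of them, A_52_P592305, had separate groups, at −0.11. Kcnc4 read 1.263 and 1.34 in control mice and 1.257 and 1.161 in KO mice, with a difference of −0.093. Its groups counted as separate, but KO replicate 1 lay only just below control replicate 1. Its dimmer probe, A_51_P172777, was separate in the other direction, at 0.17.

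The remaining Kv genes differed by no more than 0.105 in size, with overlapping groups. They are Kcnd3, which encodes an A-type channel that shapes the onset of firing, and Kcnq3 and Kcnq5, which encode the slow M-current. Kcnq3 lay nearest to no difference of all potassium channel genes, at 0.014 (SE 0.18): it read −4.24 and −4.69 in control mice and −4.46 and −4.44 in KO mice, so the knockouts lay between the controls.

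Of the calcium-activated potassium channels, which end spikes and slow firing after calcium entry, Kcnma1 was read by 5 probes. Kcnma1 encodes the large-conductance pore that sharpens Purkinje cell spikes. Its brightest probe read 4.75 and 4.86 in control mice and 4.72 and 4.70 in KO mice, a difference of −0.098 (SE 0.10). All 5 probes were lower in KO, between −0.26 and −0.087, and 4 had separate groups. Kcnn1, a small-conductance channel gene, had the largest difference of this class: it read −1.10 and −1.26 in control mice and −1.62 and −1.30 in KO mice, a difference of −0.28 (SE 0.16). KO replicate 2 lay only just below the controls, and a dimmer Kcnn1 probe, A_66_P121550, was separate in the other direction, at 0.10. Kcnn2, the small-conductance gene of Purkinje cells, had overlapping groups on 3 probes, with a difference of −0.053 on the brightest, and Kcnn3 overlapped as well, at 0.019.

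The inward rectifier genes hold the resting potential. Kcnj3, Kcnj6 and Kcnj9 encode subunits of the G protein-gated channels that transmitters use to quiet neurons, and a mutation of Kcnj6 causes the weaver mouse, which loses granule cells. Kcnj6 read −2.64 and −2.40 in control mice and −2.18 and −1.97 in KO mice. Both knockouts were above both controls, and the difference of 0.45 (SE 0.14) was larger than the gaps within the groups, 0.245 and 0.203. The KO signal was 136% of control, with an unadjusted limma p of 0.0331 and an adjusted p of 0.328. Over 17 alternatives the difference ran from 0.32 to 0.57 and the adjusted p from 0.269 to 0.766. Kcnj6 had 1 probe, so no second reading of it was made. Its partners did not share this direction: Kcnj9 was lower by 0.111 on the log2 scale with separate groups, and Kcnj3 overlapped with a difference of −0.075. Kcnj12, a strong inward rectifier, overlapped on both probes, at 0.017 and 0.049.

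Both genes for potassium channel-interacting proteins, calcium-binding partners that carry A-type channels to the membrane, were lower in KO. Kcnip1 read 1.75 and 1.39 in control mice and 1.27 and 1.17 in KO mice, a difference of −0.35 (SE 0.16; limma adjusted p 0.410). Its second probe was lower with separate groups too, at −0.23. The gap between the controls, 0.361, exceeded the difference, which was −0.17 without control replicate 1 and −0.53 without control replicate 2. Kcnip4 read 4.91 and 5.12 in control mice and 4.79 and 4.72 in KO mice, a difference of −0.26 (SE 0.12; limma adjusted p 0.426). Kcnip1 is known in interneurons, and the summed signal of 9 interneuron and Golgi cell markers was 6.95 and 6.93 in control mice and 6.83 and 6.70 in KO mice, with 6 of the 9 separate and lower (32.1% of all genes) and 0 higher (13.8%). The part of these markers in the Kcnip1 and Kcnip4 values was not tested. Hcn2, the pacemaker-type channel gene and the only member of its class, read 4.53 and 4.36 in control mice and 4.43 and 4.39 in KO mice. The knockouts lay between the controls, and the difference was −0.032 (SE 0.11).

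**Figure D2:**
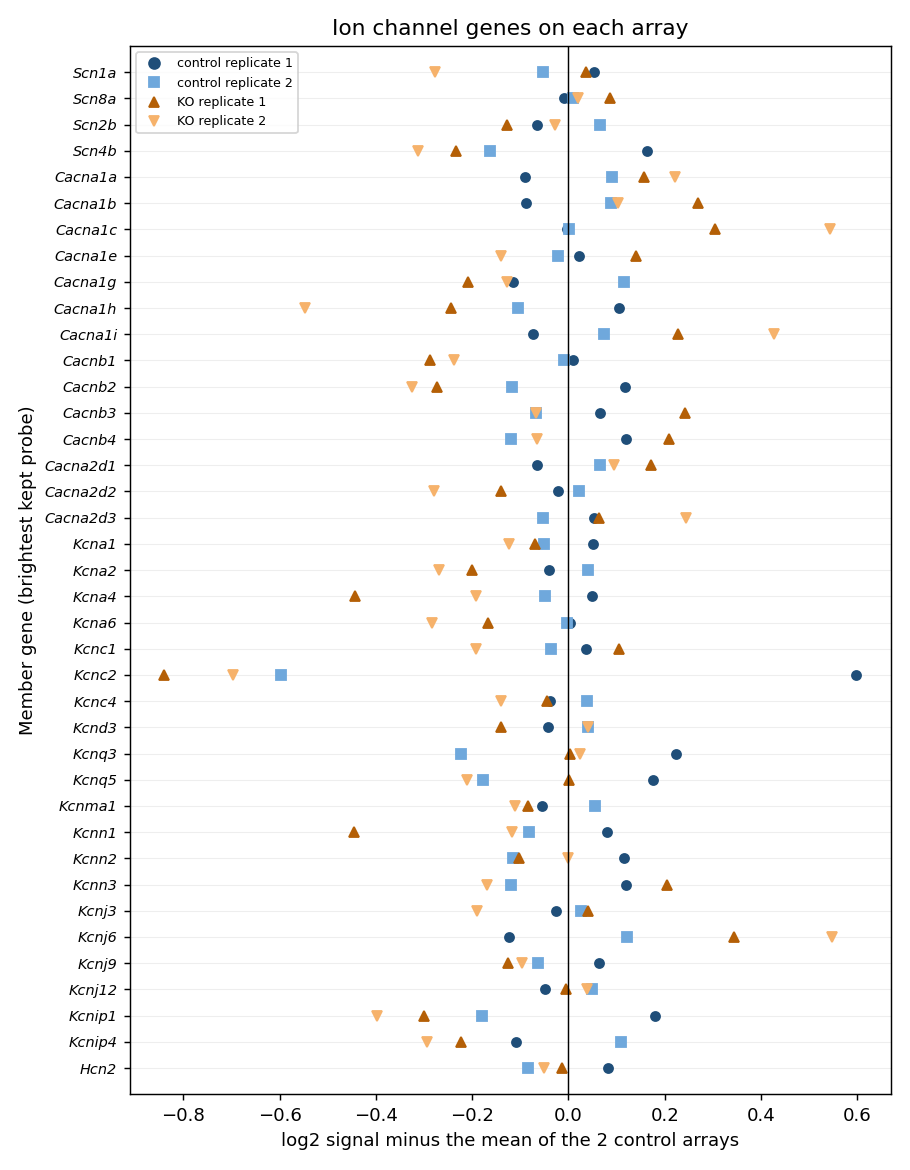
Log2 signal of each of the 39 channel genes on each of the 4 arrays, as the distance from the mean of the 2 control arrays (horizontal axis; brightest kept probe). For Cacna1c and Kcnj6 both knockout arrays lie to the right of both controls, and for Kcnc2 control replicate 1 lies far to the right of the other 3 arrays.

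The classes were then set side by side. The median difference was 0.080 for the 14 calcium channel genes, −0.097 for the 20 potassium channel genes, −0.099 for the 4 sodium channel genes and −0.032 for Hcn2, with −0.064 over all genes. Relative to all genes the calcium median was 0.143 higher and the potassium median differed by −0.033. Of the calcium channel genes 9 of 14 were higher in KO, counting Cacna1e at 0.0004, against 36.1% of all genes. With the mean of all kept probes 7 of 14 were higher, and with patch spots also left out 9. On the brightest probes the groups were separate in 78.6% of cases, 6 higher (42.9%, background 13.8%) and 5 lower (35.7%, background 32.1%). The lean within the calcium class came from the pores and alpha2delta subunits, with medians of 0.185 and 0.133, while the beta subunits had −0.095. The calcium median did not hold its sign. Without KO replicate 1 it was −0.066, without control replicate 2 it was −0.0001, and with the mean of all kept probes of a gene it was −0.035, since that mean takes in the probes on the patch. With patch spots left out the mean of all probes gave 0.068. The potassium median was below 0 under every alternative, from −0.159 to −0.031, but lay near the median of all genes, which moved from −0.064 to 0.002 under spike-in scaling. A test of the difference between classes was not made.

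**Figure D3:**
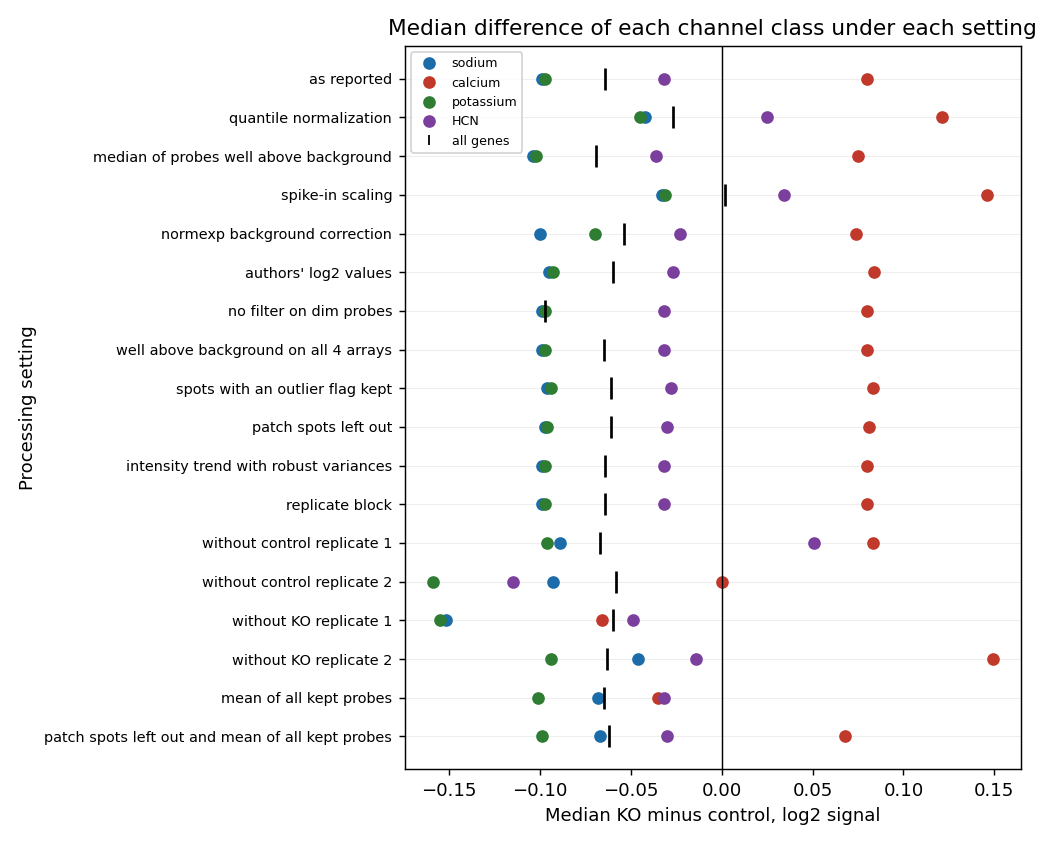
Median KO minus control difference in log2 signal (horizontal axis) of the sodium, calcium, potassium and HCN classes under each processing setting (rows), with the median of all genes as a black bar. The calcium median lies above 0 in most rows, reaches −0.066 without KO replicate 1, and the potassium median stays below 0.

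The mice of a group differed from each other somewhat less than from the mice of the other group. For the 39 members the median absolute log2 difference was 0.130 between the controls and 0.116 between the knockouts, and 0.150 to 0.198 between a knockout and a control. Over all genes these were 0.115, 0.152 and 0.155 to 0.177. The calcium class showed the gap between the 2 knockouts: its median was 0.104 and 0.112 for KO replicate 1 against the 2 controls, and −0.072 and 0.008 for KO replicate 2. For the potassium class each of the 4 knockout-control pairs gave a median below 0, from −0.192 to −0.072. The pairs share arrays, and the median of all genes was also below 0 in each, from −0.065 to −0.055.

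Several probes of a gene gave a second reading for 22 members. For 16 of them all kept probes had the same sign, among them Cacna1a, Cacna1c, Cacna1g, Kcna6, Kcnma1 and Kcnip1. For 6 the signs differed: Cacna1b, Cacna1h, Cacna1i, Kcnc1, Kcnc4 and Kcnn1. In Cacna1b and Cacna1i the odd probe was one on the patch of raised background of control replicate 1; without the 4 member probes on that patch, 4 genes kept probes of both signs.

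**Figure D4:**
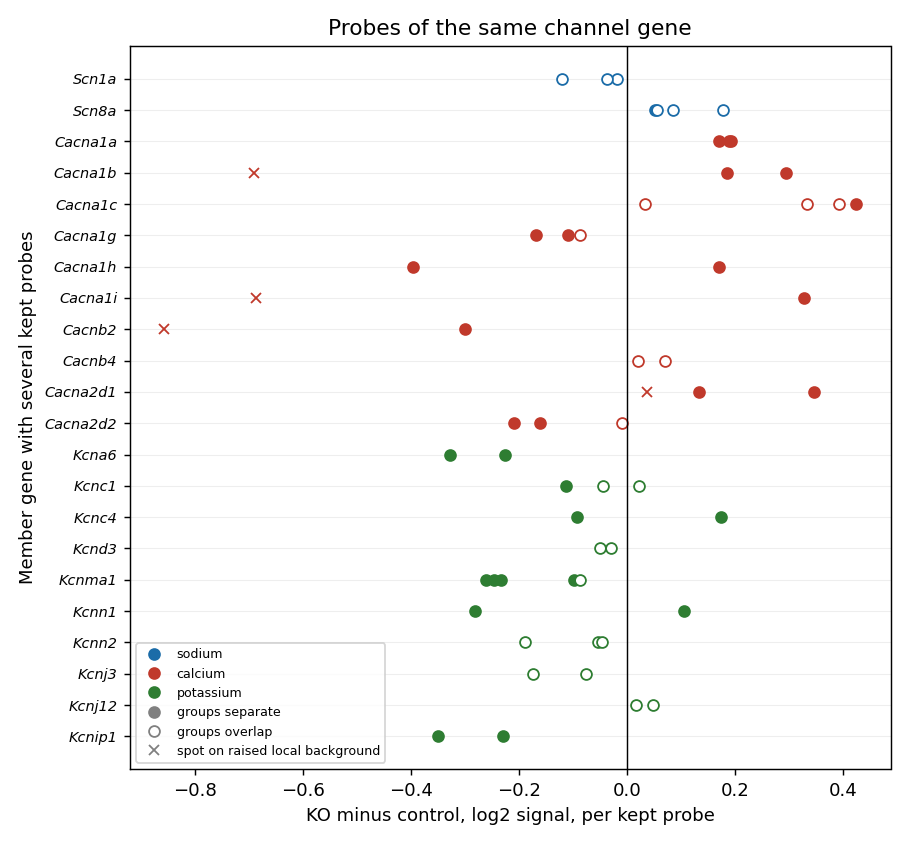
KO minus control difference in log2 signal (horizontal axis) of every kept probe of the 22 channel genes with several probes; filled points have separate groups, open points overlap, and crosses are spots on raised local background. The crosses of Cacna1b, Cacna1i and Cacnb2 lie at −0.69, −0.69 and −0.86, left of the other probes of the same genes.

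Other channel genes, outside the 39, were read from a wider list of 101 genes on the array, 79 of them kept. None passed the adjusted threshold. At an unadjusted limma p under 0.05 there were 9 of 79, 3 higher and 6 lower, against 8.81% of all genes. Separate groups were found for 39 of 79 (49.4%, near the 45.9% of all genes), 11 higher (13.9%, background 13.8%) and 28 lower (35.4%, background 32.1%). Genes with calcium channel names in this list were lower in KO in 8 of 10 cases (63.9% of all genes), with a median of −0.205. Of these, 7 were separate and lower (32.1% of all genes). Most of the 10 are Cacng genes, a family with no member among the 39. The rest, Cacna1d, Cacna1s and Cacna2d4, differed by 0.35, −0.10 and −0.43. Sodium channel genes were higher in 5 of 8 cases (36.1% of all genes), with a median of 0.109. The member medians of the calcium and sodium classes, 0.080 and −0.099, had the opposite signs, but the calcium lists hold different gene families. Potassium channel genes were lower in 42 of 58 cases, with a median of −0.128. Among genes detected in all 4 mice, those lower in KO with the smallest p were Kcnn4, Kcnh4 and Kcne1l. Kcnn4, the intermediate-conductance calcium-activated channel, read −3.60 and −3.67 in control mice and −4.71 and −4.39 in KO mice, a difference of −0.92 (SE 0.15; limma adjusted p 0.273). Kcnh4 differed by −0.55 on this probe and by −0.045 on another, and Kcne1l by −0.44. Those higher in KO were Cacna1d, Kcnh6 and Kcnt1, and the last 2 differed by 0.38 and 0.31. Kcnt1 had 2 further probes with overlapping groups, at 0.047 and 0.18. Cacna1d, the other L-type pore of the brain, read −0.58 and −0.59 in control mice and −0.26 and −0.21 in KO mice, a difference of 0.35 (SE 0.10; limma adjusted p 0.300), and a dimmer probe overlapped at 0.14. Kcnj13 and Kcne2, channel genes of the choroid plexus, had large differences of −1.25 and −4.00 that followed the array of control replicate 2: Kcnj13 read 2.06 there and between −0.45 and −0.39 elsewhere, and Kcne2 read 2.10 there and −4.42 or less elsewhere.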

How the data were processed

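Cerebellar RNA of 2 control and 2 KO mice was labelled from 150 ng per sample, per the labels' protocols. The deposited scanner files hold linear intensity values which, per the file headers, came from version 12.1.1.1 of Agilent's Feature Extraction (the submitters' processing notes list 10.7.1.1): background was subtracted within each array, and arrays were not normalized against each other. The authors' series table of log2 values, whose scale and centring are not stated in the labels, was an alternative.

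Spots of one probe were averaged as log2 processed signal, with control and outlier-flagged spots left out, and values were set relative to the 75th percentile of their array. Of 35886 probes with a RefSeq accession, 32994 (91.9%) were named through a RefSeq table of GRCm38.p6. A gene was read on its brightest kept probe. KO and control were compared with limma 3.58.1 in R 4.3.3 (lmFit, eBayes, no covariates; n = 2 per group; 4.35 degrees of freedom). Labels do not tell how the mice are related, so p-values measure the spread between these samples. On simulated data for the same 37516 probes, the share called was 6% for a simulated log2 change of 1 and 66% for 2, so most log2 changes of 1 or less would be missed.

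The members and lists were chosen with earlier results of these data known. Array values were given for members with an unadjusted p under 0.05, the largest difference in each of 10 classes, opposite probe signs, and, in the sodium, calcium, potassium and HCN classes, the member with the brightest probe (Scn2b, Cacna1a, Kcna1 and Hcn2) and the one nearest to no difference. Cacna1g, Cacnb1, Kcna2, Kcna4, Kcna6, Kcnma1, Kcnip4, Kcnj13 and Kcne2 were added after their values were seen, as was the alternative that leaves out patch spots and averages probes. Rules on outlying samples could not be applied to groups of 2. The marker lists also covered the following, as median KO minus control difference: astrocytes and Bergmann glia −0.128, oligodendrocytes −0.277, their precursors −0.169, microglia −0.228, endothelium and pericytes −0.102, red blood cells −0.372 and choroid plexus −2.37 (both lists high on control replicate 2), Purkinje cells −0.062, granule cells −0.027, and interneurons and Golgi cells −0.157.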

Additional observations from a re-analysis of the deposited data

How the results depend on the processing

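Of 663 values of the 39 members under 17 alternatives, 630 kept their direction, and 23 members kept it throughout; no member passed the adjusted threshold in any alternative. The count of probes called over the whole array, 0, was 1 under quantile normalization, the median of bright probes, spike-in scaling and omission of patch spots, 2 under normexp, 4 under the intensity trend, 0 with the replicate number as a block (replicate block), and 0 to 98 with an array left out, 98 without control replicate 2. The block was not used because nothing says that equal numbers pair the mice. Same-numbered mice deviated with a correlation of 0.124 over probes. With 2 mice per group, other-numbered mice then give −0.124 by construction, so this value cannot decide on pairing.

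Class medians moved by more than the spread between replicates as follows. Under quantile normalization they were −0.042 for sodium, 0.121 for calcium, −0.045 for potassium and −0.027 for all members. Under spike-in scaling they were −0.033, 0.146, −0.031 and −0.012. With the mean of all kept probes calcium was −0.035. With an array left out they ran from −0.152 to −0.046 for sodium, −0.066 to 0.149 for calcium, −0.159 to −0.094 for potassium and −0.124 to −0.044 for all members. Separate groups among the other channel genes, 39 of 79, ran from 51 to 69 with an array left out, where fewer arrays have to be separated and 68.7% to 76.9% of all genes were separate. With an array left out 13 members reversed, 20 kept their direction but moved by over 1.5 times, and 6 (Cacna1c, Cacna1i, Cacnb1, Kcna2, Kcna6 and Kcnj6) moved by less.

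Except for Cacna1b (0.19) and Cacna1i (0.33), signs reversed for differences of 0.12 or less in size. Under quantile normalization and spike-in scaling the values were 0.0063 and 0.023 for Kcnc1, 0.011 and 0.016 for Kcnd3, 0.0043 and 0.013 for Kcnn2, and 0.025 and 0.034 for Hcn2. Under normexp they were 0.0065 for Kcnd3 and −0.059 for Kcnn3, and under the median of bright probes −0.0043 for Cacna1e. With the mean of kept probes they were −0.070 for Cacna1b, −0.179 for Cacna1i and 0.041 for Kcnc4. With patch spots also left out the value was 0.043 for Kcnc4, while Cacna1b and Cacna1i kept their direction. With an array left out the ranges were −0.276 to 0.036 for Scn1a, −0.140 to 0.141 for Cacna1e, −0.067 to 0.242 for Cacnb3, −0.066 to 0.208 for Cacnb4, −0.192 to 0.105 for Kcnc1, −0.140 to 0.041 for Kcnd3, −0.210 to 0.239 for Kcnq3, −0.282 to 0.072 for Kcnq5, −0.167 to 0.062 for Kcnn2, −0.168 to 0.206 for Kcnn3, −0.191 to 0.041 for Kcnj3, −0.032 to 0.067 for Kcnj12 and −0.115 to 0.051 for Hcn2. The cause was not tested. The number of arrays limits every value here.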
